A study of Mus musculus with 11 samples.

Results

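Genes of neurons, of the vesicle release machinery and of enteroendocrine cells were examined in colon tissue from a mouse model of colitis-associated colorectal cancer. The members were picked with a pattern of gene names, drawn up with earlier results of these data known, that takes in synaptotagmins, syntaxins and other SNARE genes, RIM, synapsin, neurexin and neuroligin genes, neuronal cytoskeleton and RNA-binding protein genes, neuropeptides, granins and gut hormones. Of 172 protein-coding RefSeq names that match it, 63 stood among the 7868 genes of the deposited table. That table lists the genes that the authors kept at a p-value of at most 0.05, so the other 109 names missed this limit, were not tested or carry another name there, and nothing is said of their levels. The pattern also catches 9 secretoglobins, whose names share their first letters with the granins, and these are described apart from the other 54.

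The study asked how enteric glia and macrophages interact in colorectal tumors, and this series compared tumor-bearing with healthy colon. RNA came from colon tissue of 11 female wildtype mice, 4 of them naive and 7 treated with AOM/DSS. By the study's account the tissue of the treated mice was tumor, and AOM/DSS colon stands for it below. Azoxymethane (AOM), a carcinogen, was injected once at 10 mg/kg. From day 7 these mice drank dextran-sodium sulfate (DSS), which injures the gut lining, at 1.5% in 3 cycles, with 5 days of DSS and 16 days of recovery in each, until day 70. Naive mice were kept for the same span without either agent. Neither the age nor the strain of these mice is given in the labels. The study's description of this table calls the AOM/DSS tumors full-thickness, that is, with the muscle coat, which holds a large part of the gut's nerve cells, while the title in the file puts the word beside the naive colon. How much muscle each piece held is not given. The files hold 1 authors' mean per gene and group on a normalized scale, with no value per mouse. No SD, test or depth can therefore be given, and every difference below is a ratio of 2 means whose replicate error is unknown. Reads were taken at the 3′ end of each transcript, so the length of a gene has little part in its level. In bulk tissue, fewer cells of a type and less RNA per cell cannot be told apart.

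The gut wall holds its own nervous system. Its neurons lie in a plexus between the muscle layers and another under the mucosa, and they release transmitters and neuropeptides from synaptic and dense-core vesicles. A vesicle fuses when a SNARE protein on its membrane (a VAMP) zips together with SNAREs on the target membrane (a syntaxin and a SNAP protein). Many but not all synaptotagmins sense calcium, RIM proteins hold vesicles at the release site, and syntaxin-binding proteins guide the syntaxins. Enteroendocrine cells, scattered in the epithelium, use the same dense-core vesicle pathway to secrete hormones, with granins as vesicle cargo. Many SNAREs also serve membrane traffic in every cell.

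Among the listed members, all 6 neuronal cytoskeleton genes, all 5 granin and secretagogin genes and all 3 regulators had lower means in AOM/DSS colon. All 9 secretoglobins and 7 of 9 SNARE genes had higher means, as had 4507 of all 7868 listed genes. The median log2 ratio (AOM/DSS over naive) of the SNARE genes was 0.36, below the 0.44 of all listed genes. Relative to that 0.44, 6 of the 9 SNARE genes lay on the lower side. Of the 63 listed genes, 37 had the lower mean in AOM/DSS (58.7%, against 42.7% of all listed genes) and 26 the higher. At least 2-fold lower were 24 of 63 (38.1%, against 17.1% of all listed genes), and at least 2-fold higher were 15 of 63 (23.8%, against 31.7%). Of those 15, 9 were secretoglobins, and 5 of these 9, listed at 0 in naive tissue, count as past 2-fold without a ratio. Among the 54 members that are not secretoglobins, 24 (44.4%) were at least 2-fold lower and 6 (11.1%) at least 2-fold higher. The median log2 ratio of AOM/DSS over naive was −0.49 over the 63 and −0.90 over the 54 without secretoglobins, while over all listed genes it was 0.44. Taken relative to that 0.44, the median of the 54 was −1.34, and 41 of the 63 lay on the lower side in place of 37. Large ratios are more frequent among weakly expressed genes in this table. Among listed genes whose higher mean lay between 1 and 10, 13 of 20 members and 25.1% of all genes were at least 2-fold lower. Between 10 and 100, these were 11 of 36 members and 11.1% of all genes. No list test was made, and the counts describe this table only.

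**Figure D1:**
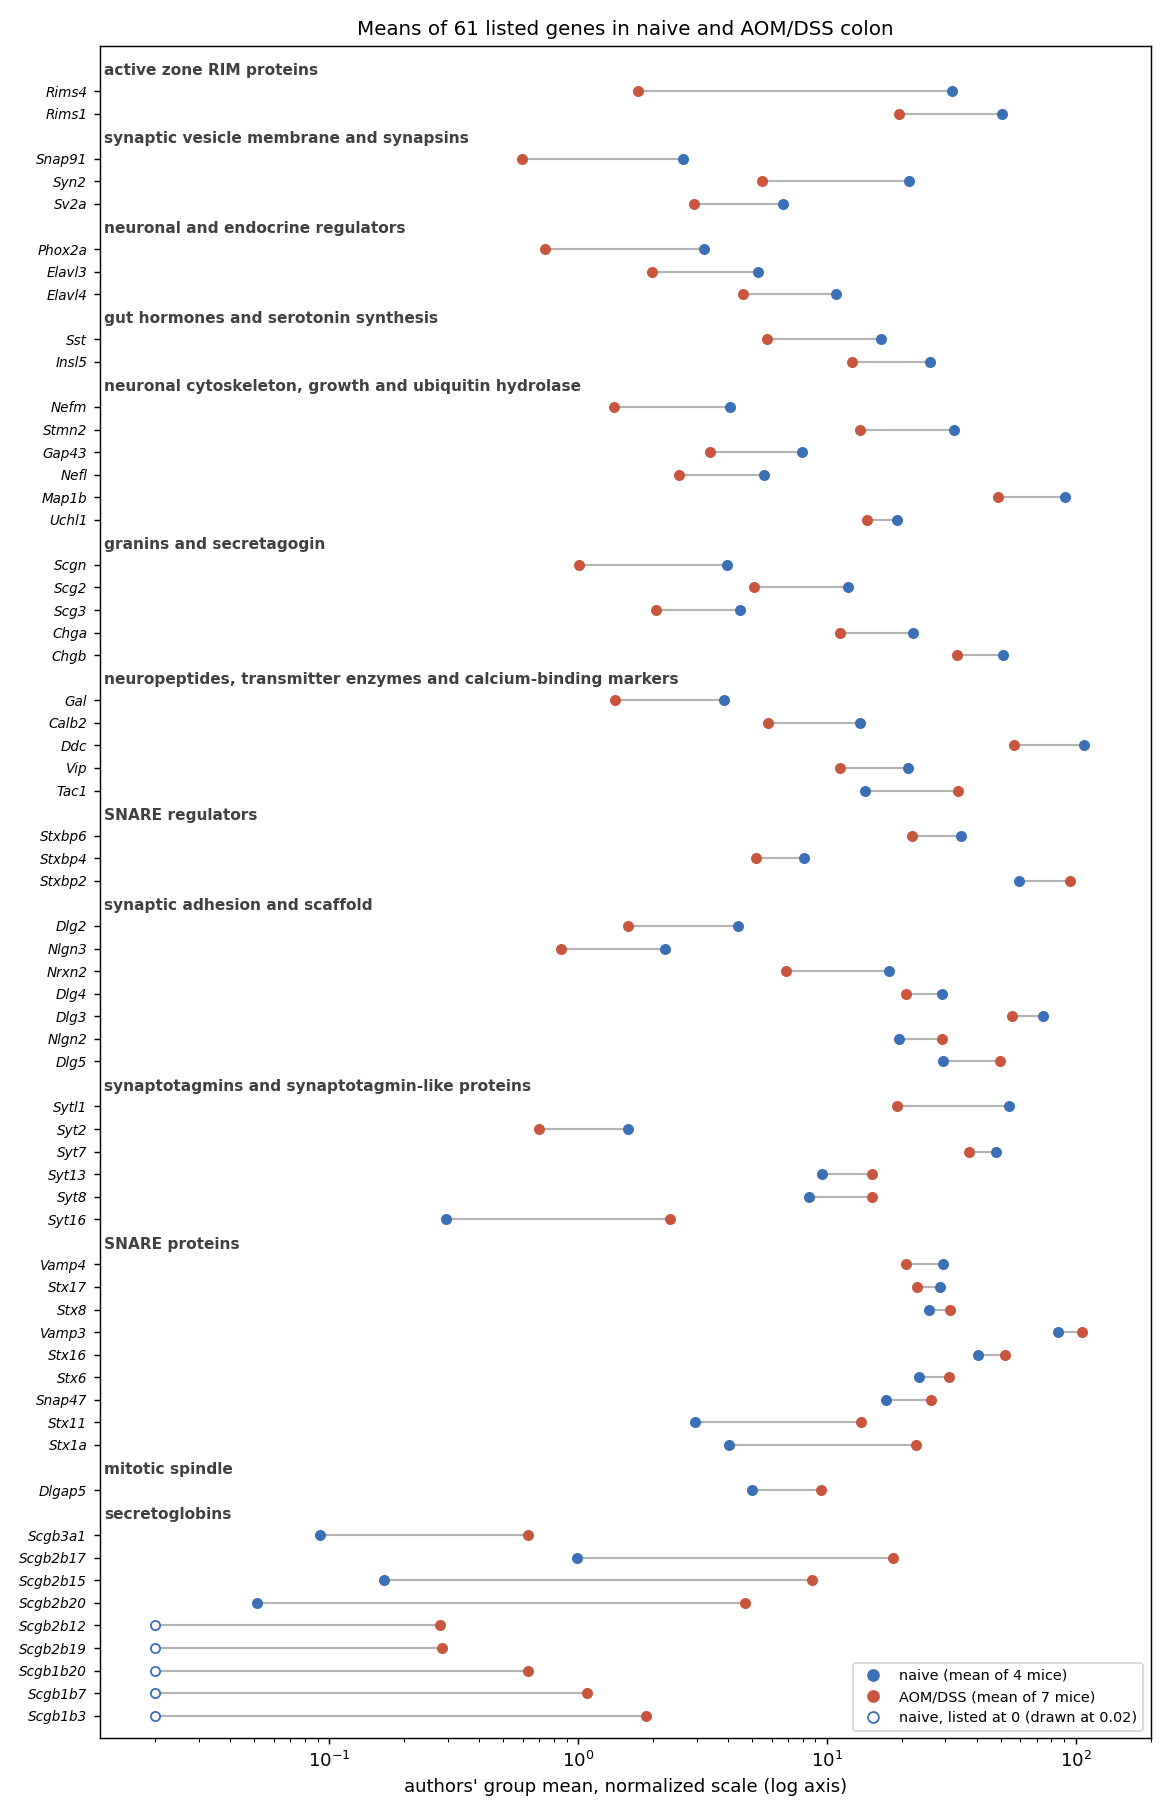
Authors' normalized group means of 61 of the 63 listed genes on a log axis, grouped by role and ordered by the ratio, with naive (4 mice) in blue and AOM/DSS (7 mice) in red; open circles mark 5 secretoglobins that are listed at 0 in naive tissue and are drawn at 0.02. Active zone, vesicle, cytoskeleton, granin and hormone genes lie with red to the left of blue, and secretoglobins with red to the right; no error is drawn because no value per mouse was at hand.

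The lowest ratio belonged to an active zone gene. Rims4, a short member of the RIM family that organizes vesicle release, had a mean of 31.8 in naive and 1.74 in AOM/DSS colon, 18.3-fold lower, and was 103rd from the lowest ratio among all 7868 genes. Rims1, a scaffold that holds vesicles and calcium channels together, stood at 50.6 in naive and 19.5 in AOM/DSS colon, 2.59-fold lower. Both listed genes of this 4-gene family were thus lower, and Rims2 and Rims3 were not listed. The 3 listed genes of vesicles and their recycling went the same way. Syn2, a synapsin that tethers synaptic vesicles to the cytoskeleton, had 21.4 in naive and 5.49 in AOM/DSS colon (3.89-fold lower). For Snap91, which encodes a clathrin adaptor of vesicle recycling and is no SNARE in spite of its name, the means were 2.63 and 0.595 (4.43-fold lower). Sv2a, a vesicle membrane glycoprotein, went from 6.65 to 2.92, or 2.28-fold lower. Synaptophysin (Syp), Syn1, Syn3, Sv2b and Sv2c were not listed.

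Neuronal cytoskeleton and growth genes were lower in all 6 listed cases, of 13 names. Nefm and Nefl, the medium and light neurofilament chains, stood at 4.10 and 5.60 in naive colon, and at 1.40 and 2.56 in AOM/DSS colon. This made them 2.93-fold and 2.19-fold lower. Stmn2, a tubulin-binding protein of growing axons, had 32.5 in naive and 13.6 in AOM/DSS colon, 2.39-fold lower. Gap43, a growth cone protein, went from 7.95 to 3.39 (2.35-fold lower). The other listed genes of this group stayed short of 2-fold. Map1b, a microtubule-binding protein, was 1.85-fold lower (48.996 against 90.6), and Uchl1, a ubiquitin hydrolase abundant in neurons, 1.32-fold lower (14.5 against 19.2). The remaining 7 names, among them Tubb3, Stmn1 and Nefh, were not listed.

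Among regulators, 3 of 10 names were listed and all were at least 2-fold lower. Phox2a, a homeodomain factor of autonomic and enteric neurons, had a mean of 3.21 in naive and 0.735 in AOM/DSS colon, 4.36-fold lower. The neuronal RNA-binding protein genes Elavl3 and Elavl4, whose products are the targets of the pan-neuronal Hu antibody, stood at 5.32 and 10.9 in naive colon. In AOM/DSS colon they stood at 1.98 and 4.62, which is 2.68-fold and 2.36-fold lower. Ret, the receptor on which the enteric nervous system depends in development, was not listed, and neither was Neurod1, a factor of endocrine differentiation.

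Neuropeptide genes did not all go the same way. Gal, which encodes galanin, had 3.88 in naive and 1.41 in AOM/DSS colon, 2.75-fold lower. Vip, the precursor of vasoactive intestinal peptide, a relaxant transmitter and secretagogue, had 21.2 and 11.3 and stayed short of 2-fold (1.87-fold lower). Tac1, the precursor of substance P, an excitatory transmitter, was in contrast 2.37-fold higher in AOM/DSS, at 33.7 against 14.2. Tac1 was the only listed neuropeptide gene of the pattern with the higher mean in AOM/DSS. Calb2, which encodes calretinin, a calcium-binding marker of enteric neuron classes, went from 13.6 to 5.82 (2.33-fold lower). Ddc, the decarboxylase that makes dopamine and serotonin and is also found in epithelium, had the highest naive mean of the 63 genes. It stood at 107.8 in naive and 56.6 in AOM/DSS colon, 1.91-fold lower. Nos1, Th and Calb1 were not listed.

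All 5 granin and secretagogin genes and both hormone genes of the pattern that were listed had lower means in AOM/DSS. Hormone genes outside the pattern, among them Ghrl and Nts, stood higher and are given with the lists further on. Chga and Chgb, the chromogranins that pack dense-core vesicles, had 22.2 and 50.9 in naive and 11.3 and 33.2 in AOM/DSS colon. Neither reached 2-fold, with 1.97-fold and 1.53-fold lower means. Scg2 and Scg3, the secretogranins, stood at 12.2 and 4.49 in naive and at 5.08 and 2.06 in AOM/DSS colon. They were 2.40-fold and 2.18-fold lower. Scgn, secretagogin, a calcium-binding protein of neuroendocrine cells, went from 3.97 to 1.01, 3.92-fold lower. Of the hormones, Sst, which encodes somatostatin, an inhibitor of secretion made by D cells and by some enteric neurons, had 16.5 in naive and 5.75 in AOM/DSS colon (2.88-fold lower). Insl5, a hormone of colonic L cells, had 25.98 and 12.7 (2.05-fold lower). The hormone genes Pyy, Gcg and Cck, and Tph1, a gene of serotonin synthesis, were not listed.

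Promoter windows of 300 bases, 250 before and 50 after an annotated gene start, were at hand from RefSeq (GRCm38.p6, the same build as mm10). They covered 46 of the 63 genes. Letters TGACGTCA, the full cyclic AMP response element (CRE) that the factor CREB is known to bind, were searched on both strands and occurred in 4 of the 46 genes (8.70%) and in 2.03% of all 27025 genes with a window. These were Sst, Scg2, Chgb and the secretoglobin Scgb2b20. In the first 3, all genes of dense-core vesicle cargo with lower means in AOM/DSS colon, the element begins 48, 68 and 72 bases before the start. Insl5, a hormone gene that also had a lower mean, has a window without the element. The 3 genes are shown because they hold it, as the last 100 bases before the start on the gene's own strand, with the element in capitals.
Sst, minus strand of chr16:23890845-23890944: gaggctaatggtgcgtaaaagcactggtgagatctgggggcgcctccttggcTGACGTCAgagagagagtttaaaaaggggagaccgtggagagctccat
Scg2, minus strand of chr1:79440027-79440126: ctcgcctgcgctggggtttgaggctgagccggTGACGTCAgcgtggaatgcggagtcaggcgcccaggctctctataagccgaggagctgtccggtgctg
Chgb, plus strand of chr2:132781542-132781641: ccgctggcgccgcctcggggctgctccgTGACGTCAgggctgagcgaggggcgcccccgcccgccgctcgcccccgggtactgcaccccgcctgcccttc
The element is intact in all 3, and the flanking bases differ. The RefSeq span of the Sst gene reaches chr16:23891342, past its shown window, so the start used for Sst lies inside that span. In Scgb2b20, a gene with a higher mean in AOM/DSS, the letters begin 204 bases before the start. Letters TTCAGCACC and GGACAGCGC, half-sites of the element bound by REST, a repressor of neuronal genes outside neurons, occurred in 1 (Scg2) and 0 of the 46 genes, and in 0.433% and 0.477% of all genes. Letters CAGATG, an E-box of neurogenic factors, were found in 9 of 46 (19.6%) against 19.2% of all genes. In Scg2, the only gene with more than 1 of the 4 motifs, the matches do not overlap. A match describes the sequence, not a bound site.

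Synaptic adhesion and scaffold genes were split, with 5 of 8 listed genes lower and 3 higher. Nrxn2, a presynaptic adhesion receptor, had 17.7 in naive and 6.83 in AOM/DSS colon, 2.60-fold lower. The neuroligins, postsynaptic partners of the neurexins, were split, with Nlgn3 2.63-fold lower (0.855 against 2.25) and Nlgn2 1.49-fold higher (29.1 against 19.5). Of the Dlg scaffolds that anchor receptors under the membrane, Dlg2 went from 4.40 to 1.59 (2.76-fold lower), and Dlg3 and Dlg4 were 1.34-fold and 1.40-fold lower. Dlg5, a polarity scaffold that many epithelia use, was 1.70-fold higher, at 49.8 against 29.3. Dlgap5, caught by its name, encodes a mitotic spindle protein and was 1.89-fold higher (9.48 against 5.02).

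SNARE genes themselves were mostly close to each other in both tissues. Of 9 listed among 27 names, 7 had the higher mean in AOM/DSS. For Stx6 and Stx16 of the trans-Golgi network, Stx8 of late endosomes and Vamp3 of recycling endosomes, the ratio was between 1.22 and 1.32, and relative to the median of all listed genes these 4 turn to the lower side. Snap47 was 1.51-fold higher, and Vamp4 and Stx17, an autophagosome SNARE, were 1.41-fold and 1.25-fold lower. Vamp3 had 84.9 in naive and 105.6 in AOM/DSS colon, the highest mean of this group. Clear ratios were limited to a pair of syntaxins. Stx1a, the target-membrane syntaxin of neurons and neuroendocrine cells, had 4.06 in naive and 22.8 in AOM/DSS colon, 5.63-fold higher. Stx11, a syntaxin of cytotoxic lymphocytes and other immune cells, had 2.95 and 13.7, 4.63-fold higher. Snap25, the usual partner of Stx1a in neurons, and Vamp2 were not listed.

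Among syntaxin-binding genes, Stxbp2, the partner of Stx11 in cytotoxic granule release, stood at 59.4 in naive and 95.1 in AOM/DSS colon, or 1.60-fold higher. Stxbp4 and Stxbp6 were 1.56-fold and 1.57-fold lower. No complexin gene was listed.

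Synaptotagmins were divided. Syt2, a fast calcium sensor of synapses, had 1.58 in naive and 0.696 in AOM/DSS colon, 2.27-fold lower. Sytl1, a synaptotagmin-like protein that links the small GTPase Rab27 to secretory vesicles, went from 53.9 to 19.1 (2.82-fold lower). Syt7, a sensor of lysosome and granule exocytosis in many cells, was 1.28-fold lower. On the other side, Syt16 had 0.296 in naive and 2.34 in AOM/DSS colon, 7.92-fold higher from a very low mean. Syt13 and Syt8 were 1.58-fold and 1.79-fold higher. The main sensor of fast release in neurons, Syt1, was not listed.

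**Figure D2:**
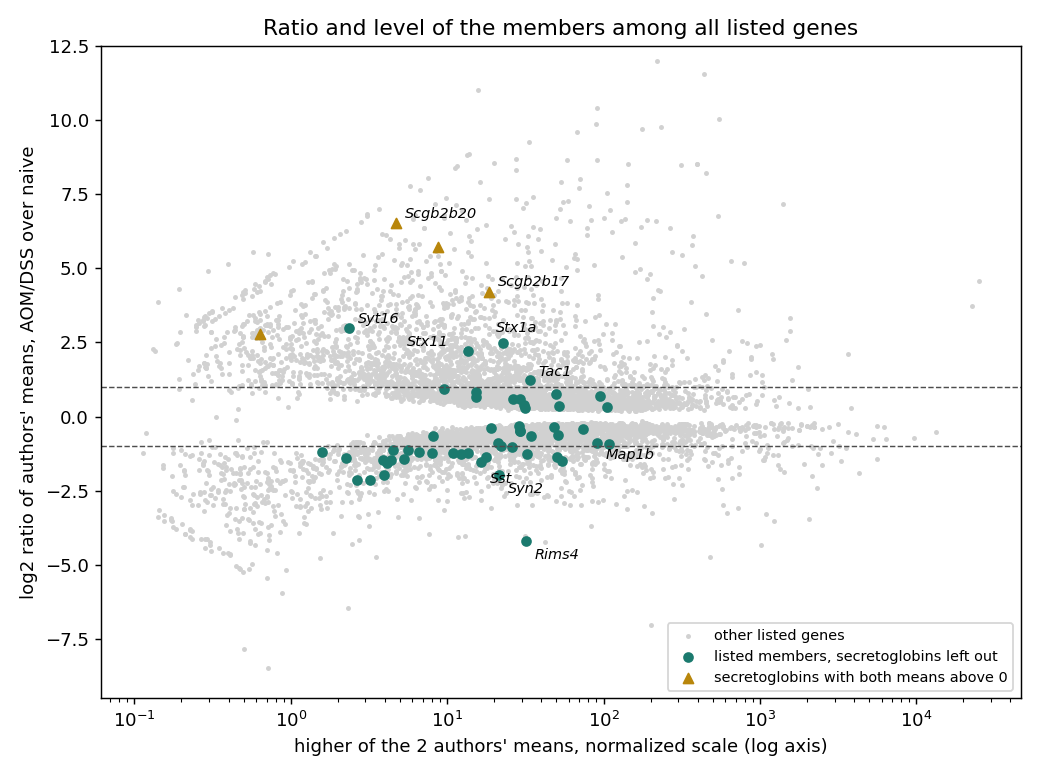
Log2 ratio of the authors' means (AOM/DSS over naive) against the higher of both means on a log axis, for listed genes with both means above 0, 2 members left out; dashed lines mark 2-fold. Green points are 52 of the 54 listed members without secretoglobins, of which 24 lie at or under the lower line and 4 at or over the upper, and gold triangles are the 4 secretoglobins with both means above 0; few genes lie close to 0 because the table keeps genes under the authors' p-value limit.

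Secretoglobins, small secreted proteins that belong neither to neurons nor to endocrine cells, were higher in AOM/DSS in all 9 listed cases, of 40 names. Scgb2b17 had a mean of 0.992 in naive and 18.4 in AOM/DSS colon (18.5-fold higher). For Scgb2b15 the means were 0.166 and 8.74 (52.6-fold), and for Scgb2b20 they were 0.0511 and 4.71 (92.1-fold). In naive tissue Scgb1b3 was listed at 0, and its AOM/DSS mean was 1.88. The same held for Scgb1b7, at 1.09, Scgb1b20, at 0.631, Scgb2b19, at 0.285, and Scgb2b12, at 0.278, and no ratio is given for these. Scgb3a1, an airway secretoglobin, stood at 0.0920 and 0.631. Naive means were under 1 throughout, and with 1 added to both means the log2 ratio of Scgb2b20 went from 6.53 to 2.44.

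Many of these genes are alike in sequence within the Scgb1b or within the Scgb2b group, and their values may not be separate measurements. The Scgb1b and Scgb2b genes encode paired subunits of androgen-binding proteins, known from mouse saliva and tears, and the 8 listed ones lie in a cluster of 1.999 Mb at chr7:31375592-33374559 (GRCm38.p6). In the GENCODE M21 transcripts, all 50-base words of the last 300 bases of Scgb2b15 and of Scgb2b17 also occur in another gene. In the other 6 genes of the cluster, between 15.1% (Scgb1b3) and 78.1% (Scgb2b20) of the words do. Of the 55 remaining members, 52 share no such word, Nefm shares 0.199%, Dlgap5 10.4% and Stxbp2 21.9%. The sources used here do not give how the authors assigned reads that align to several genes. The likeness extends to the promoters, where the 300-base windows of Scgb2b15 and Scgb2b17 are identical. Stretches of 60 bases from these promoters are shown to make this visible, all on the minus strand. They were chosen as the most alike part, since each opens with the longest run (30 bases) found before the start in all 5 genes. Set start to start without gaps, only 82, 67 and 79 of the 300 bases of Scgb2b12, Scgb2b19 and Scgb2b20 match Scgb2b17, a count in which the shared run itself is out of register. In the stretches, capitals mark bases that differ from Scgb2b17 at the same position.
Scgb2b17, chr7:33056644-33056703: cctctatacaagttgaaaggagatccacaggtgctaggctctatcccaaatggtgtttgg
Scgb2b15, chr7:32829745-32829804: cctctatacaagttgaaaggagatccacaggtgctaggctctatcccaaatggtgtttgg
Scgb2b12, chr7:32327333-32327392: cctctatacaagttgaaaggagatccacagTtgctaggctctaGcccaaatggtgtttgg
Scgb2b19, chr7:33280424-33280483: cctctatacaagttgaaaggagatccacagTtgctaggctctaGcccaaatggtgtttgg
Scgb2b20, chr7:33366404-33366463: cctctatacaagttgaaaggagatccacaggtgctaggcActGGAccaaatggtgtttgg
Scgb2b12 and Scgb2b19 share the same 2 differences over this stretch, Scgb2b20 has 4 and Scgb2b15 none. The authors' means of Scgb2b15 and Scgb2b17 differ, at 8.74 and 18.4 in AOM/DSS, although no 50-base word tells their last 300 bases apart from other genes.

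Genes outside the pattern were taken from 3 lists, and their shares stand against 17.1% of all listed genes at least 2-fold lower and 31.7% at least 2-fold higher. Of 41 enteric neuron genes, 12 were listed, 9 of them lower in AOM/DSS and 3 higher, with 4 (33.3%) at least 2-fold lower and 3 (25.0%) at least 2-fold higher. Nmu, which encodes the neuropeptide neuromedin U, went from 5.73 to 1.93 (2.97-fold lower), Celf4, a neuronal RNA-binding protein, from 22.2 to 8.86 (2.51-fold), and Ina, a neurofilament partner, from 1.86 to 0.821 (2.26-fold). Cacna1b, the pore of the presynaptic N-type calcium channel, was 2.16-fold lower, and Prph, peripherin, stood at 4.84 against 9.52. Hand2, Ndrg4, Gfra2 and Zeb2 were the other 4 with lower means. Calcb, the precursor of a calcitonin gene-related peptide of sensory and enteric neurons, was the exception in size. It had 0.617 in naive and 32.4 in AOM/DSS colon, 52.5-fold higher. The opioid peptide precursor gene Pdyn was 3.25-fold and Tbx3, a factor that is not limited to neurons, 3.61-fold higher.

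Of 46 genes of vesicle release and recycling, 18 were listed, 13 of them lower and 5 higher, with 6 (33.3%, a gene at 0 included) at least 2-fold lower and 1 (5.56%) at least 2-fold higher. Ppfia3, a liprin that binds RIM at the active zone, had 33.7 in naive and 7.28 in AOM/DSS colon, 4.63-fold lower. Rab3b and Rab3c, vesicle GTPases that recruit RIM, were 4.16-fold and 3.35-fold lower, and Pclo, the active zone scaffold piccolo, 2.39-fold. Syngr3, a vesicle membrane protein, went from 1.79 to 0.242 (7.38-fold lower), and Rph3a, a Rab3 effector, was listed at 0 in AOM/DSS and at 0.265 in naive tissue. Napb, Doc2b, Cacna1a, Rab3a, Dnm1, Bin1 and Cadps2 were lower by less than 2-fold. Ppfia4, another liprin, was 3.54-fold higher, at 12.9 against 3.64, and Bsn, the active zone scaffold bassoon, was 1.75-fold higher, at 6.76 against 3.86. Nsf, the ATPase that takes SNARE complexes apart in every cell, and the proton pump subunits Atp6v1b2 and Atp6v0a1 were 1.87-fold, 1.59-fold and 1.44-fold higher.

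Of 45 enteroendocrine and dense-core vesicle genes, 18 were listed, 10 lower and 8 higher, with 8 (44.4%) at least 2-fold lower and 8 (44.4%) at least 2-fold higher. Cpe, the carboxypeptidase that trims prohormones, had 148.6 in naive and 48.0 in AOM/DSS colon, 3.10-fold lower. Pcsk1n, which encodes an inhibitor of a prohormone convertase, was 2.90-fold lower (9.28 against 26.9), Resp18, a vesicle protein, 2.48-fold, and Insm1, a factor of endocrine differentiation, 2.11-fold. Rab3c and Nmu are also in the lists above, and Mlxipl, Etv1 and Bex2 had lower means too. Among the higher genes, Slc18a1, the vesicular monoamine transporter of endocrine cells, went from 1.47 to 12.8 (8.71-fold), and the gut peptide gene Nts from 0.531 to 4.44 (8.37-fold). Fabp5, at 229 against 12.1 (18.9-fold higher), Marcksl1, at 113.7 against 16.1 (7.08-fold), and Gch1 are not limited to endocrine cells. Ghrl, the ghrelin gene, was 4.30-fold higher from a naive mean of 0.236. Afp was higher too, and Iapp, listed at 0 in naive tissue, is counted as higher without a ratio.

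Markers of other cell types differed between both tissues too and are given beside the ratios above. All 12 smooth muscle markers were listed, and each was at least 2-fold lower in AOM/DSS, with a summed mean of 16383 in naive and 6346 in AOM/DSS colon (2.58-fold lower) and a median log2 ratio of −1.40. This lies near the medians of the neuronal cytoskeleton genes (−1.18) and of the 7 listed of 12 enteric neuron markers (−1.24), 6 of which are members. Markers of interstitial cells of Cajal, pacemaker cells of the muscle coat, were lower in all 3 listed of 5 (sum 346 against 141, naive first), with Kit and Hcn4 not listed. Enteric glia markers were lower in 6 of 7 listed of 11, with Sox2 higher and Sox10 and Gfap not listed (sum 133.0 and 81.9). Epithelial markers were lower in 5 of 6 listed of 13, with Epcam and Cdh1 not listed (sum 9512 and 5661). Leukocyte markers were higher in all 10, summing to 438 in naive and 1683 in AOM/DSS colon. Endothelial markers (4 listed of 7) and fibroblast markers (3 of 7) were all higher, summing to 90.2 and 163 and to 894 and 1392. No marker of these lists was at 0 in either group. Enteroendocrine markers, several of which are members, were lower in all 8 listed of 15, with a median log2 ratio of −1.19. The part of muscle content in the ratios of neuronal genes, and of leukocyte content in those of Stx11 and Stxbp2, was not tested. Nor was the part of epithelial content in the ratios of the granin and hormone genes. Of the members, 5 lie under all 12 muscle markers, the lowest of which, Myocd, had a log2 ratio of −1.73. These are Rims4 (−4.19), Snap91 (−2.15), Phox2a (−2.13), Scgn (−1.97) and Syn2 (−1.96). Many other listed genes lie as low, since Syn2 was 462nd and the next member, Nefm, 698th from the lowest ratio of all 7868. With 1 added to both means, Snap91, Phox2a and Scgn went to −1.19, −1.28 and −1.30, where the muscle markers had a median of −1.34. Rims4 and Syn2 went to −3.58 and −1.78.

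**Figure D3:**
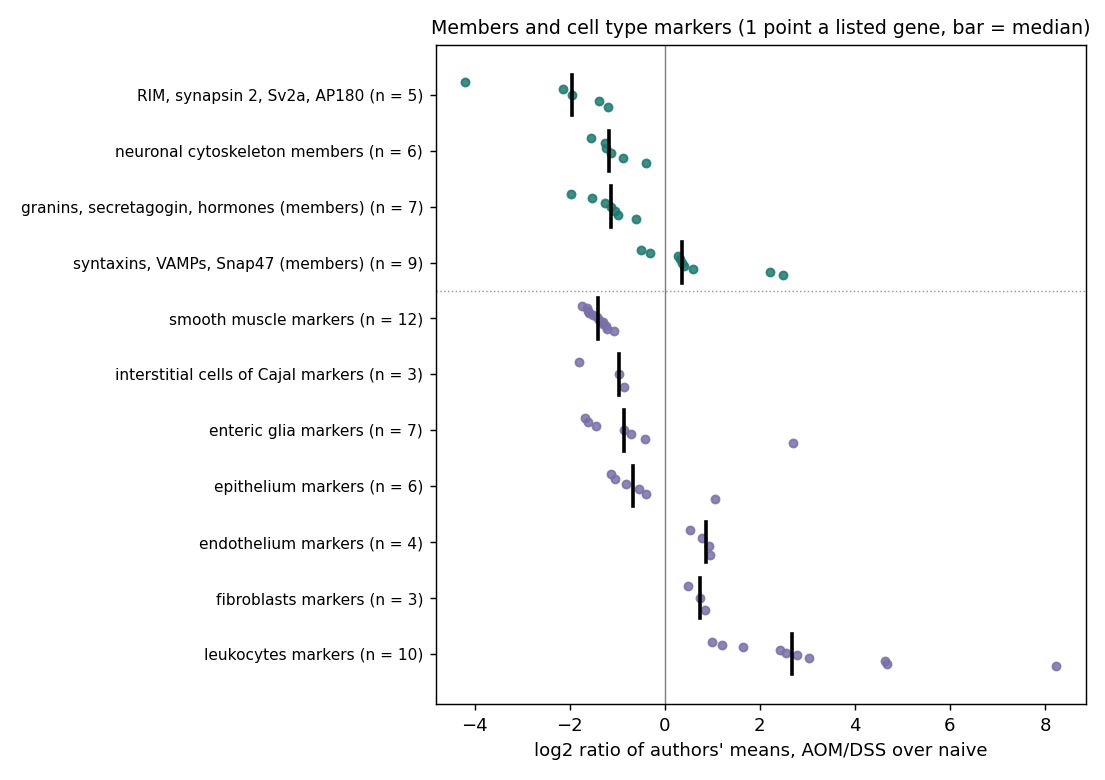
Log2 ratios of the authors' means (AOM/DSS over naive) for 4 sets of members (green) and for listed marker genes of other cell types (purple), 1 point a gene, with the median as a bar. Neuronal cytoskeleton genes (median −1.18) and smooth muscle markers (median −1.40) overlap, syntaxins, VAMPs and Snap47 center on 0.36, and leukocyte markers lie at the right.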

How the data were processed

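Colon RNA of 7 AOM/DSS and 4 naive mice was made into 3′ mRNA libraries (QuantSeq). According to the methods and the submitters' processing notes, which name cutadapt, STAR, Partek and mm10, reads were trimmed, aligned, quantified to Ensembl transcripts, normalized and compared by gene-specific analysis in Partek Flow. Not given in the sources used here are the normalization and the treatment of reads with several alignments. The file holds the authors' deposited least-squares means per group, a normalized signal from gene counts, beside the p-values, FDR values and signed folds of the authors' own comparison. None of these values is printed per gene, and the FDR values and folds were not used. The deposited p-value column was read to test the table's limit, and its highest value was 0.05. No gene name is repeated. The lowest mean, 0.0001, was taken as a placeholder for 0 (500 genes in the naive column, 69 in the other). A gene with it is called listed at 0, has a direction and gets no ratio.

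Ratios of the authors' means were computed in Python 3.11.15 (pandas 2.3.3, numpy 2.4.6), and a gene was counted at 2-fold or more. The code for ratios and counts was run on simulated means with known changes and no noise, which checks its arithmetic only. Promoters came from RefSeq (GRCm38.p6) and transcript ends from GENCODE M21. With no values per sample, no test, SD or interval was possible, and the depth is unknown. Of the 63 listed members, 2 are counted but not reported here by name. The others are named, with both means for those at least 2-fold apart with a higher mean of at least 1, at 0 in a group or with a mean of at least 100. From the outside lists, values are given for up to 5 genes on each side with a higher mean of at least 1. Values of Rph3a, Insm1, Scgb3a1 and members short of 2-fold were added after they were seen. Members, lists and motifs were chosen with earlier results of these data known. Snap91, Dlgap5, Scgn and the secretoglobins were moved out of the role their names gave. Alternatives were a fold of 1.5 or 4, 1 added to both means, a higher mean of at least 1 or 10, leaving out genes at 0, centring on the median, and leaving out secretoglobins. The last was chosen after seeing the data.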

Additional observations from a re-analysis of the deposited data

How the results depend on the processing

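The main counts were 24 genes at least 2-fold lower and 15 at least 2-fold higher of 63. With a higher mean of at least 10 they were 11 and 6 of 39 genes. Of the 24 lower genes, 13 had a higher mean between 1 and 10 and do not enter there. At 4-fold in place of 2-fold, 3 genes were lower. The least low of these, Phox2a, was 402nd from the lowest ratio among all 7868 listed genes. At 4-fold the members' share is thus no larger than that of all listed genes. Without the secretoglobins, 6 genes were higher. Under the other alternatives both counts stayed within 1.5 times the main ones, and the median log2 ratio stayed negative under all 6 alternatives that give one, between −0.94 with centred ratios and −0.43 with a higher mean of at least 10. Of the 39 genes past 2-fold, none changed its direction with 1 added to both means or with centred ratios. With 1 added, 15 of the 39 moved by more than 1.5 times. No paired analysis was possible because the file has 1 mean per group and no columns of samples, and for the same reason no replicate could be left out. Depth per library is unknown, so no detection limit can be given for genes listed at 0.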
